A study of Mus musculus with 8 samples.

Results

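A group of 10 transcription factors that direct the passage of keratinocytes from the basal to the cornified layer were followed in the epidermis of mice with and without epidermal *Rora*. They are *Trp63*, *Klf4*, *Grhl1*, *Grhl3*, *Zfp750*, *Ovol1*, *Prdm1*, *Cebpa*, *Cebpb* and *Gata3*. They were chosen by name, as the rows of the gene count table whose Ensembl identifier carries these symbols in the GENCODE mouse annotation. All 10 were found among the 55416 genes of the table, and all 10 were among the 13147 genes with enough counts to be tested. RNA-seq was done on epidermis of mice at postnatal day 4, with 4 libraries labelled WT, here called control, and 4 labelled as epidermal *Rora* knockouts, here called RoraEKO. The knockout came from a cross of floxed *Rora* mice with a *K14-Cre* line, in which the keratin 14 promoter drives Cre in basal keratinocytes, so cells of other origin in the epidermis keep *Rora*. The study compared the knockouts with control littermates, and the labels do not say which floxed or Cre alleles the controls carried. Each library is named here by the letter and number of its label, which are A1, B1, C1 and C6 for control and A3, B4, C2 and C3 for RoraEKO, and the meaning of the letter is not given. Levels are in counts per 1000000 counts of a library in the tested genes, after TMM scaling (CPM).

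Keratinocytes divide in the basal layer, leave it for the spinous layer, fill with barrier proteins and lipids in the granular layer and end as dead corneocytes. The p63 protein holds the basal state and opens the epidermal programme, while KLF4, the grainyhead-like factors, the zinc finger protein encoded by *Zfp750*, OVOL1, Blimp1 (encoded by *Prdm1*), the C/EBP factors and GATA3 act later, as cells stop dividing and build the barrier. RORα, the product of *Rora*, is a nuclear receptor that binds the half-site AGGTCA behind a short A/T-rich stretch.

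The comparison between genotypes asked whether the transcripts of these 10 factors differ when epidermal *Rora* is deleted. *Gata3* alone passed the cutoffs, lower at 74.3 ± 8.64 CPM in RoraEKO against 126 ± 36.3 CPM in control (SD, n = 4 each), narrowly and in 8 of 19 alternatives. *Cebpa* stood higher in all 4 RoraEKO libraries than in any control library, at 240.1 ± 28.1 against 178 ± 13.4 CPM, but did not pass the test. *Klf4*, the most abundant of the 10, also had higher values in every RoraEKO library and *Grhl1* lower ones, by smaller amounts that did not pass either. For *Trp63*, *Grhl3*, *Zfp750*, *Ovol1*, *Cebpb* and *Prdm1* the genotypes overlapped.

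The targeted gene did not check the labels. *Rora* was at 212 ± 66.6 CPM in control and 196 ± 34.6 CPM in RoraEKO (-0.11 on the log2 scale, adjusted p = 0.877 by the quasi-likelihood test of edgeR), and a count over the whole gene cannot tell transcripts with the floxed part from those without it. Every direction given here therefore rests on the genotype labels. Library totals ran from 17286903 to 26705533 counts, and the 10 factors had between 300 and 24406 counts per library, so no value of theirs rests on fewer than 300 counts. *Xist*, the X-inactivation transcript, reached 416 CPM in control C1 and 527 CPM in control C6, and no other library held more than 0.0546 CPM. Libraries with it were found in the control group only, so the genotypes are in part confounded with what sets libraries with and without *Xist* apart. The comparison is also given with *Xist* as a covariate for *Ovol1* and *Prdm1*, where that changed the direction, and for *Gata3* and *Grhl3*.

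The stretches before the starts of *Gata3* and *Cebpa* are shown because these genes had the largest differences in either direction. They are the 250 bases before the RefSeq transcript start on GRCm38.p6, read 5′ to 3′ along the gene, for *Gata3* on the minus strand at chr2:9878601-9878850 and for *Cebpa* on the plus strand at chr7:35119043-35119292. Capitals mark the letters CACCC, the core that KLF proteins bind, or GGGTG, the same letters on the other strand.
Gata3: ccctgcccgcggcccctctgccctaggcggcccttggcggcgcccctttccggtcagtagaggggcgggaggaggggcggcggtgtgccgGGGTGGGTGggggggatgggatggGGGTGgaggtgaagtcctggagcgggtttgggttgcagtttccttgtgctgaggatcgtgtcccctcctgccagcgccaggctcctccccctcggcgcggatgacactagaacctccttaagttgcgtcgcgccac
Cebpa: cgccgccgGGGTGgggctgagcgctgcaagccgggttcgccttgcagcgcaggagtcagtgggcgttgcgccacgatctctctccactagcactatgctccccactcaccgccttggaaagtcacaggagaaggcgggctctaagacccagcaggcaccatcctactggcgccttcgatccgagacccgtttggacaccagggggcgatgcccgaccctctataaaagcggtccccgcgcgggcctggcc
The RefSeq table held 8 windows for 7 of the 10 genes, each of 250 bases before and 50 after a start, and none for *Trp63*, *Zfp750* and *Ovol1*. Searched on both strands, AGGTCA was in 0 of these 8 windows and in 16.3% of all 32851 windows of this length. The longer TAGGTCA, which contains it, was in 0 of 8 windows and in 2.61% of all. CACCC was in 5 of 8, those of *Gata3*, *Cebpa*, *Cebpb* and *Grhl3* and the second window of *Grhl1*, and in 57.5% of all windows. AGATAA, a core bound by GATA factors, was in 0 of 8 windows and in 11.2% of all. The C/EBP letters TTGCNNAA were in 0 of 8 and 10.8% of all. For grainyhead factors ACCGGTT was in 0 of 8 and 1.02% of all. The last 4 of these motifs were added after values had been seen. Of the bases shown, 70% are G or C for *Gata3* and 66.4% for *Cebpa*, against a median of 52.4% over all windows.

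Levels were compared between genes as CPM per kb of the Ensembl canonical transcript. In control, *Klf4* led with 216 ± 14.6 CPM per kb, followed by *Grhl1* with 130.1 ± 10.9 (SD, n = 4 each). *Zfp750* with 71.0 ± 6.5, *Cebpa* with 67.6 ± 5.10 and *Ovol1* with 62.0 ± 17.2 CPM per kb came next, and neighbours in this run overlapped. *Gata3* with 38.8 ± 11.2 CPM per kb overlapped *Ovol1* above it but not *Grhl3* below. *Grhl3*, *Cebpb* and *Prdm1* lay together at 20.7 ± 5.36, 19.0 ± 0.857 and 18.1 ± 3.81 CPM per kb and overlapped. *Trp63* was lowest at 8.08 ± 1.2 CPM per kb, clear of *Prdm1*.

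**Figure D1:**
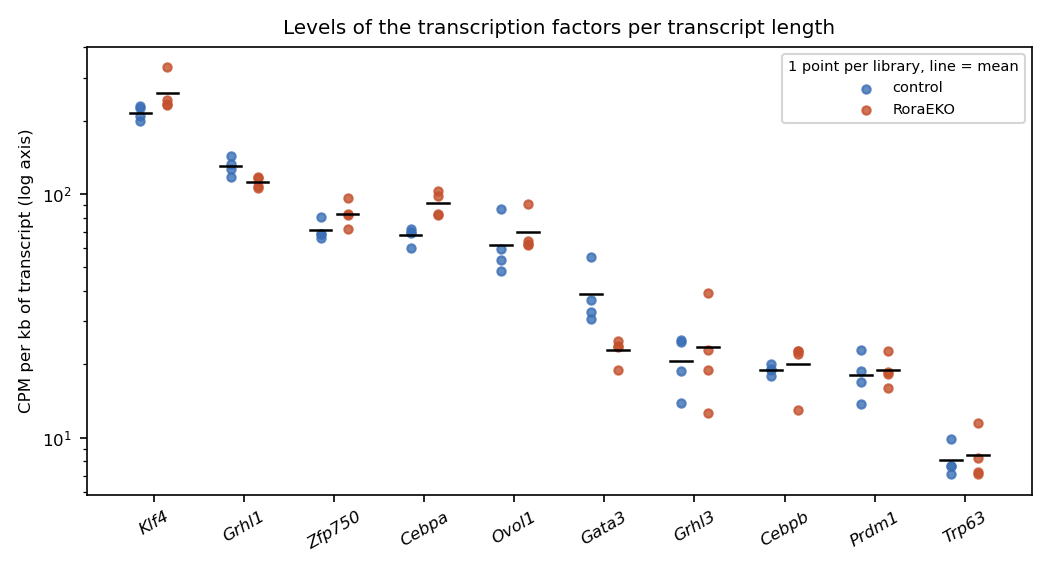
Level of each factor in CPM per kb of transcript (log axis), ordered by the control mean, with 1 point per library and a line at the mean of the 4 libraries of each genotype. *Klf4* leads in both genotypes and *Trp63* is last, and *Gata3* goes from 38.8 to 22.8 CPM per kb.

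In RoraEKO the order was the same at both ends, with *Klf4* at 259.9 ± 47.4 and *Trp63* at 8.52 ± 2.03 CPM per kb. *Cebpa*, at 91.4 ± 10.7 CPM per kb, took the place above *Zfp750*, at 83.0 ± 10.2, and the libraries of these neighbours overlapped. *Gata3*, at 22.8 ± 2.65 CPM per kb, came after *Grhl3*, at 23.5 ± 11.4, and overlapped it. The place of *Grhl1* depends on the length used, since all its annotated exons together span 15719 bases against 3525 in the canonical transcript. On the longer length it ranked 5 of 10 in both genotypes, and *Gata3* in RoraEKO ranked 9 in place of 7, after *Cebpb* and *Prdm1*.

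Of the 10 factors, 8 had a log2 fold change above 0 and 2 below, and their median was 0.13 against -0.04 for all 13147 genes. Past both cutoffs, which ask for more than 1.5-fold at an adjusted p below 0.05, 0 of 10 were higher and 1 of 10, *Gata3*, was lower. Among all tested genes 2.3% were past the cutoffs higher and 3.22% lower. With DESeq2 the counts were also 0 higher and 1 lower, where 3.64% and 4.21% of all genes were called. At an unadjusted p under 0.05, 1 factor (*Cebpa*) was higher and 1 (*Gata3*) lower, beside 7.92% and 10.3% of all genes. All 4 RoraEKO libraries lay above all 4 control libraries for 2 factors, *Cebpa* and *Klf4*, and below them for 2, *Gata3* and *Grhl1*, while 5.4% and 7.54% of all genes were separated in this way.

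**Figure D2:**
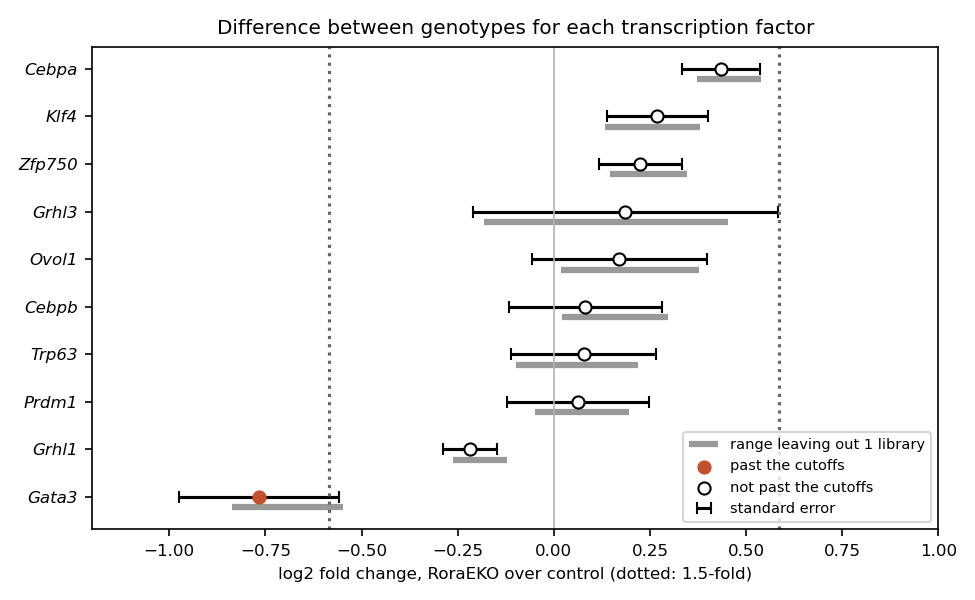
Log2 fold change of each factor, RoraEKO over control, with its standard error (n = 4 libraries per genotype) and, as a grey bar, the range when each of the 8 libraries is left out in turn. *Gata3* at -0.77 is the filled point, and *Cebpa* at 0.44 lies short of the dotted 1.5-fold line.

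*Gata3* (ENSMUSG00000015619, chr2:9861889-9894845 of GRCm39, minus strand) encodes a zinc finger factor that epidermal barrier lipid synthesis and the inner root sheath of the hair follicle depend on. It was at 179.6, 107, 119 and 99.9 CPM in control A1, B1, C1 and C6. In RoraEKO A3, B4, C2 and C3 it was at 81.4, 77.7, 61.8 and 76.4 CPM. The RoraEKO libraries all lay below the lowest control, and control A1 stood well above the other controls. The log2 fold change was -0.77 (SE 0.209), and the adjusted p of 0.0493 (edgeR) was just inside the cutoff. The separation of the genotypes already made RoraEKO lower within each letter, for A3 against A1, B4 against B1, and C2 and C3 against C1 and C6. With the letter as a block the log2 fold change was -0.73 (adjusted p = 0.0145, edgeR), and with *Xist* as a covariate it was -0.96 (adjusted p = 0.0393, edgeR). The direction held over 19 alternatives, with a log2 fold change from -0.96 to -0.55, but both cutoffs were passed in 8 of them. The call was lost in the libraries without *Xist* alone (-0.89, adjusted p = 0.0887, edgeR) and, with adjusted p from 0.0524 to 0.0584, with RLE size factors, without a filter on low counts and with a filter of 10 counts in every library. Leaving out control A1 gave -0.55 (adjusted p = 0.0352, edgeR), under the fold cutoff, and leaving out A3, B1, B4, C1, C2 or C3 gave an adjusted p between 0.0815 and 0.181, so that among single libraries only C6 could be dropped without losing the call.

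**Figure D3:**
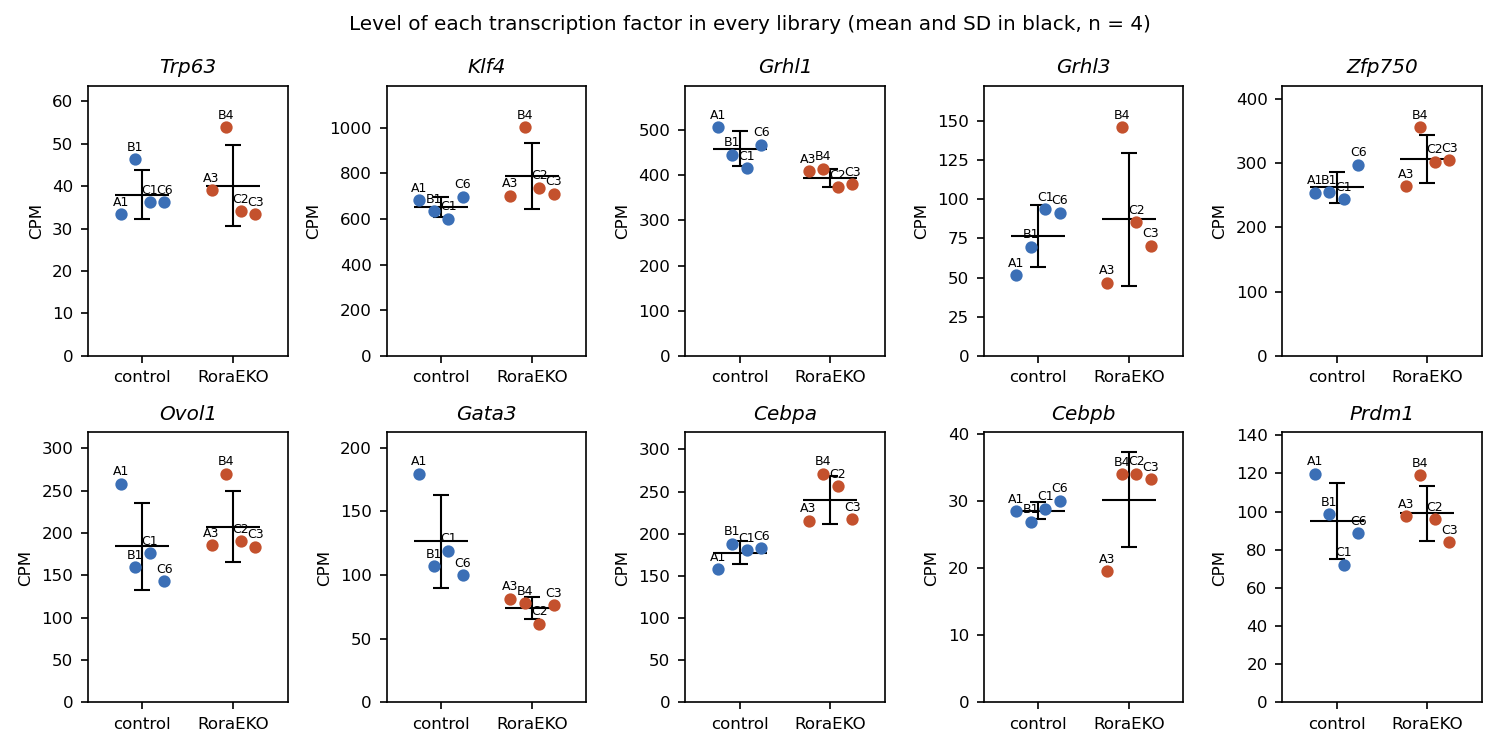
Level of each factor in CPM in the 4 control libraries (blue) and the 4 RoraEKO libraries (red), each point named by its library, with the mean and SD in black and each axis starting at 0. *Gata3* and *Grhl1* are lower and *Cebpa* and *Klf4* higher in every RoraEKO library, and RoraEKO B4 is the top red point for 8 of the 10.

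*Cebpa* (ENSMUSG00000034957, chr7:34818718-34821353, plus strand) encodes C/EBPα, a leucine zipper factor that acts in keratinocytes as they leave the cell cycle. It was at 158, 188, 181 and 183 CPM in control A1, B1, C1 and C6 and at 216, 271, 257 and 217 CPM in RoraEKO A3, B4, C2 and C3. The lowest RoraEKO library lay above the highest control, so RoraEKO was also higher within each letter. Its log2 fold change of 0.44 (SE 0.101) had an adjusted p of 0.0882 (edgeR). DESeq2 gave an adjusted p of 0.00934 for it and the letter as a block in edgeR 0.0391, both at less than 1.5-fold, and 19 alternatives gave log2 fold changes between 0.37 and 0.54 with adjusted p between 0.00934 and 0.275. A short noncoding gene on the other strand, *Gm45091*, shares 1.94% of the exon length and was below 0.5 CPM in every library.

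*Cebpb* (ENSMUSG00000056501, chr2:167530835-167532338, plus strand) encodes the related C/EBPβ, which shares targets with C/EBPα in suprabasal cells. It was at 28.5, 26.9, 28.9 and 30.1 CPM in control A1, B1, C1 and C6. In RoraEKO A3, B4, C2 and C3 it was at 19.6, 34, 34.1 and 33.3 CPM. RoraEKO A3 lay below every control and the other 3 RoraEKO libraries above every control, so the genotypes overlapped (log2 fold change 0.08, SE 0.199, adjusted p = 0.884, edgeR). Without A3 the log2 fold change was 0.30 (adjusted p = 0.174, edgeR), and without B4 it was 0.02. Of its exon length, 20.7% lies over *Peds1*, a plasmanylethanolamine desaturase gene on the other strand, singled out after its values were seen. *Peds1* fell from 87.3 ± 13.5 to 39.4 ± 4.11 CPM (log2 fold change -1.15, adjusted p = 0.00172, edgeR). The libraries were made with a kit that marks the strand, but the strand setting of the counting is not given in the sources used here, so the division of the shared reads is uncertain. The ratio of *Cebpa* to *Cebpb* counts within a library was 5.54, 6.99, 6.26 and 6.09 in control A1, B1, C1 and C6. It was 11.0, 7.97, 7.52 and 6.52 in RoraEKO A3, B4, C2 and C3, where A3 stood out and C3 fell inside the control range. The mean log2 ratio was 0.39 higher in RoraEKO, with p = 0.0571 in an exact two-sided permutation test over 70 assignments, the smallest possible p being 0.0286, and 0.114 after adjustment over the 2 ratios tested. Without RoraEKO C3, whose removal leaves no overlap between genotypes, the exact p was 0.0286, which adds no support. Without any other single library the exact p was between 0.0571 and 0.114, with a difference of 0.24 (exact p = 0.114) when RoraEKO A3 was left out.

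*Klf4* (ENSMUSG00000003032, chr4:55527139-55532528, minus strand) encodes a Krüppel-like factor needed for the skin barrier. It was at 682, 634, 602 and 698 CPM in control A1, B1, C1 and C6 and at 702, 1003, 737 and 711 CPM in RoraEKO A3, B4, C2 and C3. No values overlapped, but RoraEKO A3 exceeded control C6 by very little and B4 was far above the rest. The difference, a log2 fold change of 0.27 (SE 0.132), had an adjusted p of 0.448 (edgeR) and was 0.13 without B4. *Zfp750* (ENSMUSG00000039238, chr11:121401804-121410620, minus strand), a p63 target whose product works with KLF4 on late genes, was at 254, 254, 244 and 298 CPM in control and at 264, 356, 302 and 305 CPM in RoraEKO, in the same order of libraries. Only RoraEKO A3 lay inside the control range, and the log2 fold change was 0.23 (SE 0.108, adjusted p = 0.449, edgeR). *Zfp750* shares 2.55% of its exon length with *Tbcd*, a tubulin folding gene with a log2 fold change of 0.33 (adjusted p = 0.425, edgeR).

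The grainyhead-like pair had log2 fold changes of opposite sign, neither past the test. *Grhl1* (ENSMUSG00000020656, chr12:24622197-24669816, plus strand), which acts on desmosomal cadherins, was at 506, 446, 415 and 468 CPM in control A1, B1, C1 and C6. In RoraEKO A3, B4, C2 and C3 it was at 409, 414, 373 and 381 CPM. B4 almost reached the lowest control, C1, and the log2 fold change was -0.22 (SE 0.0707, adjusted p = 0.42, edgeR). *Grhl3* (ENSMUSG00000037188, chr4:135268329-135300992, minus strand), needed for barrier formation and wound closure, was at 51.5, 69.8, 93.6 and 91.4 CPM in control and at 46.7, 146, 85.2 and 70.3 CPM in RoraEKO, in the same order. It varied most among the 10, with the A libraries lowest in both genotypes and B4 highest of all. Its log2 fold change of 0.19 (SE 0.396, adjusted p = 0.854, edgeR) was -0.18 without B4, and it was 0.53 with *Xist* as a covariate and 0.58 in the libraries without *Xist*. The ratio of *Grhl1* to *Grhl3* counts ran from 4.44 to 9.82 in control and from 2.84 to 8.75 in RoraEKO, and the difference of -0.32 in mean log2 ratio had p = 0.457 in the exact two-sided permutation test (0.457 after adjustment over both ratios). It was -0.05 without B4, -0.09 without A1, -0.59 without A3 and -0.69 in the libraries without *Xist*.

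*Ovol1* (ENSMUSG00000024922, chr19:5599164-5610674, minus strand) encodes a zinc finger repressor that helps keratinocytes stop dividing. It was at 258, 159, 176 and 143 CPM in control A1, B1, C1 and C6 and at 185, 269.9, 190.2 and 184 CPM in RoraEKO A3, B4, C2 and C3. A single library of each genotype, A1 and B4, stood far above the others, and the log2 fold change of 0.17 (SE 0.228, adjusted p = 0.766, edgeR) became -0.03 with *Xist* as a covariate, 0.02 without B4 and 0.38 without A1. *Prdm1* (ENSMUSG00000038151, chr10:44313171-44404497, minus strand), whose product Blimp1 represses genes at the granular to cornified transition, was at 119.9, 98.7, 72.1 and 88.8 CPM in control and at 97.6, 119, 96.0 and 83.8 CPM in RoraEKO, in the same order. Its top libraries were again A1 and B4. The log2 fold change was 0.06 (SE 0.185, adjusted p = 0.918, edgeR), and it was -0.15 with *Xist* as a covariate, -0.04 without B4 and -0.05 without C1.

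*Trp63* (ENSMUSG00000022510, chr16:25502513-25710852, plus strand) encodes p63. It was at 33.4, 46.3, 36.2 and 36.2 CPM in control A1, B1, C1 and C6 and at 39, 53.9, 34.1 and 33.4 CPM in RoraEKO A3, B4, C2 and C3. The B library was the highest of its genotype in both groups, and the ranges overlapped almost whole. The log2 fold change was 0.08 (SE 0.189, adjusted p = 0.894, edgeR) and -0.10 without B4. *Trp63* gives rise to isoforms with and without the transactivation domain, which a count per gene does not separate.

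RoraEKO B4 was the highest library of its genotype for 8 of the 10 factors, all but *Gata3* and *Cebpb*, and the lowest for 0. RoraEKO A3 was the lowest for 5, namely *Cebpa*, *Cebpb*, *Grhl3*, *Klf4* and *Zfp750*. Among controls A1 was the highest for *Gata3*, *Grhl1*, *Ovol1* and *Prdm1*. B4 also stood apart in the 8 markers of basal keratinocytes, which summed to 1215 CPM there against 278 to 390 CPM in the other RoraEKO libraries and 256 to 612 CPM in control. *Krt14* and *Krt5* carried this sum. *Krt14*, singled out after its values were seen, was at 706 CPM in B4 and between 61.1 and 203 CPM elsewhere, and *Krt5* was at 371 CPM in B4 and between 63.4 and 263 CPM elsewhere. The other 6 summed to 138 CPM in B4, the top of the RoraEKO range of 103 to 138 CPM and inside the control range of 123 to 205 CPM. Of these 6, *Krt15* was lowest of all 8 libraries in B4 at 55.4 CPM and *Itga6* highest at 5.88 CPM, and *Col17a1*, *Dst* and *Itgb4* were higher in B4 than in the other RoraEKO libraries. The part of these marker differences in the levels of the 10 factors was not tested.

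Markers of the layers were read in the same libraries. Spinous markers (7 genes) summed to between 47053 and 73646 CPM in control and between 89070 and 110774 CPM in RoraEKO, without overlap, led by *Krt1* at 29965 ± 8117 and 48566 ± 3699 CPM (log2 fold change 0.70, adjusted p = 0.287, edgeR). *Krt1* and *Krt10* made up this difference, since the other 5 markers summed to between 10202 and 13233 CPM in control and between 9468 and 12199 CPM in RoraEKO, and the median log2 fold change of the 7 was 0.19. None of the 7 passed the cutoffs, which 2.3% of all genes passed higher and 3.22% lower. The counts were 1 at an unadjusted p under 0.05 (*Krt10*) and 2 by DESeq2 (*Krt1* and *Krt10*), both higher. For all genes these shares were 7.92% higher and 10.3% lower at the unadjusted p, and 3.64% and 4.21% by DESeq2. Granular markers (10 genes, 9 tested, *Krt2* not) summed to between 14966 and 22466 CPM in control and between 16251 and 22631 CPM in RoraEKO. Of these 0 passed, with *Casp14* and *Tgm1* as the 2 under an unadjusted p of 0.05 and the 2 called higher by DESeq2, and *Asprv1*, the most abundant, had a log2 fold change of -0.06 (adjusted p = 0.943, edgeR). The median log2 fold change of the 9 was 0.01, with 5 above 0 and 4 below. The lowest was *Flg2*, singled out after its values were seen, at -0.88 (adjusted p = 0.315, edgeR). Basal markers (8 genes) gave 0 calls in edgeR and 0 in DESeq2, 1 gene lower at an unadjusted p under 0.05 (*Krt15*) and a median log2 fold change of -0.39, and the most abundant in control was *Krt5*, at 172 ± 79.6 CPM there and 148 ± 149 CPM in RoraEKO (adjusted p = 0.918, edgeR). Per length, *Krt5* was at 77.7 and *Krt1* at 12206 CPM per kb in control. In bulk epidermis fewer cells of a layer and less RNA per cell cannot be told apart, for the markers and for the 10 factors alike.

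*Gata3*, *Ovol1* and *Prdm1* are also expressed in the hair follicle, and the peeled epidermis held follicle transcripts. The 7 inner root sheath markers summed to 49144, 25354, 8500 and 7864 CPM in control A1, B1, C1 and C6. In RoraEKO A3, B4, C2 and C3 they summed to 32586, 32030, 14769 and 15583 CPM. The A and B libraries held more than the C libraries in both genotypes, and the genotypes overlapped. *Tchh*, the most abundant in control, which encodes the granule protein trichohyalin, was at 8260 ± 5891 CPM in control and 9296 ± 3239 CPM in RoraEKO (adjusted p = 0.923, edgeR). Of the 7 markers 0 were called by edgeR or DESeq2 or had an unadjusted p under 0.05. Among all genes edgeR called 2.3% higher and 3.22% lower, and DESeq2 3.64% and 4.21%. At the unadjusted p the shares were 7.92% and 10.3%. With shares this low, 0 of 7 does not show that the markers were alike between genotypes. Control A1, the highest of all 8 libraries for *Gata3*, was also the top library for these markers. With the log2 of their sum as a covariate, an alternative added after seeing the data, the log2 fold change of *Gata3* was -0.83 (adjusted p = 0.00512, edgeR), that of *Cebpa* was 0.45 (adjusted p = 0.0461), that of *Ovol1* was 0.10 and that of *Prdm1* was -0.006. Control B1 alone lay within the RoraEKO range of this sum, and the part of follicle content in the levels of the factors was not tested.

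**Figure D4:**
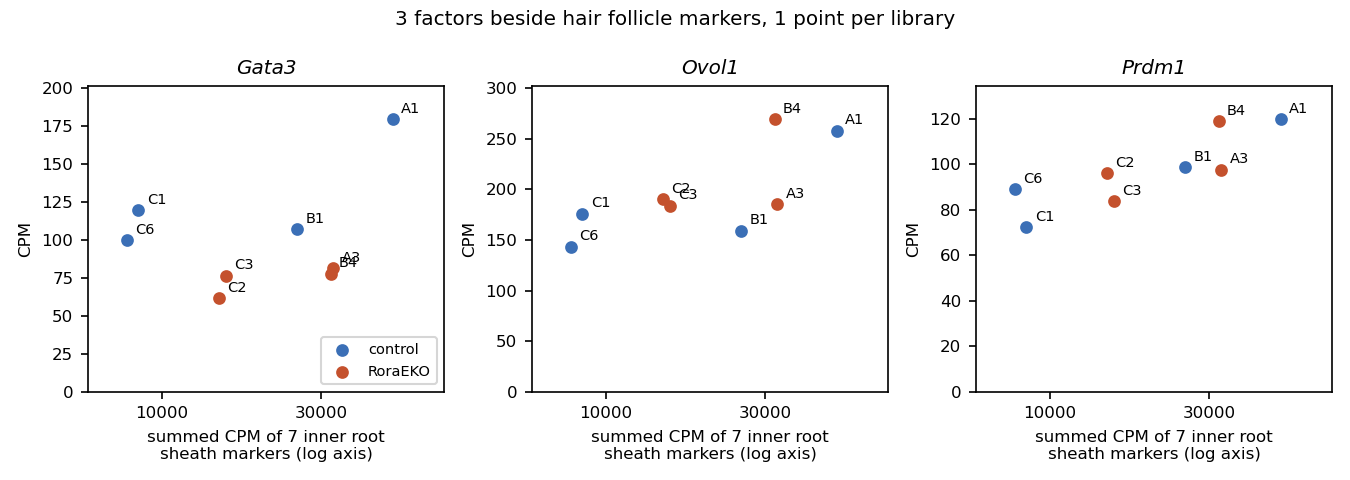
CPM of *Gata3*, *Ovol1* and *Prdm1* in each of the 8 libraries against the summed CPM of 7 inner root sheath markers (log axis), control in blue and RoraEKO in red. The 4 RoraEKO points for *Gata3* lie below all 4 control points, and those of *Ovol1* and *Prdm1* are mixed with the controls. The RoraEKO sums, from 14769 to 32586 CPM, span the middle of the axis, where control B1 alone lies.

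Other regulators of the epidermis were counted from a list of 47 transcription factors, of which 44 were tested. In it 1 rose and 0 fell past the cutoffs, beside 2.3% and 3.22% of all genes, and the median of the list was 0.03 on the log2 scale. Counts of this size are near the share among all genes. The one was *Elf3*, an ETS factor of differentiating epithelia, at 9.21, 7.54, 7.43 and 6.53 CPM in control A1, B1, C1 and C6 and at 20.2, 18.9, 14.6 and 14.9 CPM in RoraEKO A3, B4, C2 and C3. Every RoraEKO library was above every control (log2 fold change 1.16, SE 0.156, adjusted p = 0.00341, edgeR). DESeq2 called 3 of the list higher, where it called 3.64% of all genes, *Elf3*, *Dlx5* and *Ehf*, of which *Dlx5* and *Ehf* are named after their values were seen. *Dlx5*, a homeobox gene, was at 11.7 CPM in control and 17.3 CPM in RoraEKO with an adjusted p of 0.0271 in edgeR at a log2 fold change of 0.57, just under the fold cutoff. *Ehf*, another ETS factor, ranged from 6.01 to 19.6 CPM in control and from 10.5 to 63.9 CPM in RoraEKO, highest in B4 (log2 fold change 1.6, adjusted p = 0.138, edgeR). The remaining grainyhead-like gene, *Grhl2*, also named after its values were seen, was at 13.8 and 18.7 CPM without overlap (log2 fold change 0.43, adjusted p = 0.0924, edgeR).

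Of 22 chromatin regulators of the epidermis, all tested, 1 rose and 0 fell past the cutoffs, beside 2.3% and 3.22% of all genes, and the median log2 fold change was 0.08. *Ing5*, which encodes a subunit of histone acetyltransferase complexes, was at 6.47, 8.25, 6.86 and 8.11 CPM in control A1, B1, C1 and C6 and at 14.1, 25.9, 31.8 and 21.0 CPM in RoraEKO A3, B4, C2 and C3. It rose without overlap (log2 fold change 1.65, SE 0.265, adjusted p = 0.00372, edgeR). *Jarid2*, a partner of the Polycomb complex that is named after its values were seen, had an adjusted p of 0.0130 (edgeR) at a log2 fold change of -0.52, under the fold cutoff.

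Genes known as targets of the 10 factors were counted in the same way. Of 19 targets of p63, all tested, 0 rose and 1 fell, beside 2.3% and 3.22% of all genes as for the next lists, and the median on the log2 scale was 0.04. *Fgfr3*, a growth factor receptor of basal keratinocytes, was at 27.1, 50.2, 47.6 and 52.4 CPM in control A1, B1, C1 and C6 and at 18.2, 24.5, 23.6 and 21.7 CPM in RoraEKO A3, B4, C2 and C3. No values overlapped, and A1 was the lowest control (log2 fold change -1.01, adjusted p = 0.0195, edgeR). Of 9 targets of grainyhead-like factors, 8 tested, 1 rose and 0 fell, with a median of 0.20. *Tgm5*, a transglutaminase that crosslinks the cornified envelope, went from 35.2 ± 6.35 to 62.4 ± 5.44 CPM without overlap (log2 fold change 0.83, adjusted p = 0.0098, edgeR). *Tgm1*, the main transglutaminase of the envelope, named after its values were seen, was at 299 CPM in control and 487 CPM in RoraEKO, also without overlap (log2 fold change 0.70, adjusted p = 0.0578, edgeR). It passed the cutoffs with DESeq2. *Cdh1*, the E-cadherin gene, also named after its values were seen, was at 436 CPM in control and 352 CPM in RoraEKO without overlap (log2 fold change -0.31, adjusted p = 0.271, edgeR). Of 5 genes repressed by Blimp1 or OVOL1, 4 were tested and 0 were called by edgeR or DESeq2, all 4 with a log2 fold change below 0 (median -0.26). *Myc* was the 1 with an unadjusted p under 0.05 (log2 fold change -0.64, adjusted p = 0.115, edgeR). At that unadjusted p 7.92% of all genes were higher and 10.3% lower, and DESeq2 called 3.64% higher and 4.21% lower. *Nfat5*, the most abundant of the 4 in control, was at 126 ± 56.9 CPM in control and 102 ± 33.8 CPM in RoraEKO (adjusted p = 0.741, edgeR).

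**Figure D5:**
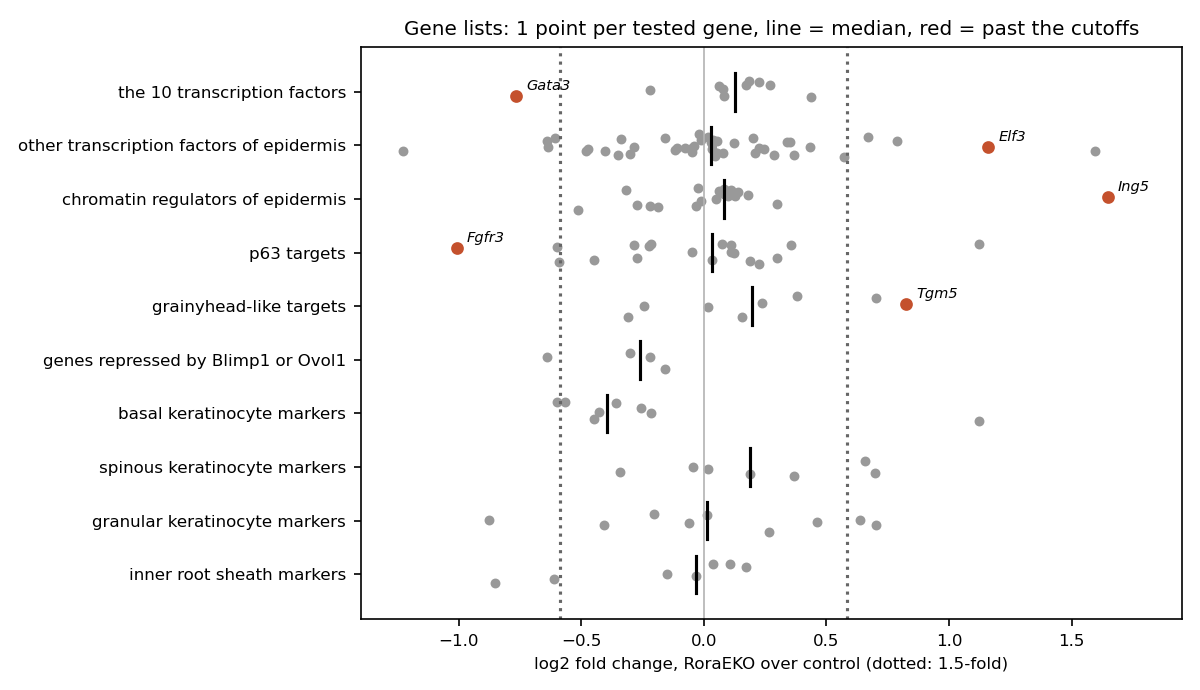
Log2 fold change, RoraEKO over control, of every tested gene of 10 gene lists, with the median of each list as a black line and the genes past the cutoffs in red. *Gata3*, *Elf3*, *Ing5*, *Fgfr3* and *Tgm5* are the named red points, and the medians run from -0.39 for basal markers to 0.20 for targets of grainyhead-like factors.

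Markers of other cells were followed in 13 lists of 93 genes, 67 of them tested. In these 1 gene was called higher and 0 lower, where 2.3% and 3.22% of all genes were called. At an unadjusted p under 0.05 the counts were 7 and 4, beside 7.92% and 10.3% of all genes, and with DESeq2 they were 2 and 1, beside 3.64% and 4.21%. The 1 was *Postn*, which encodes the matrix protein periostin and went from 14.1 ± 3.72 to 30.4 ± 7.93 CPM (adjusted p = 0.0236, edgeR). The 8 dermal fibroblast markers summed to between 16 and 20.5 CPM in control and between 27.7 and 43.7 CPM in RoraEKO. Without *Postn* the other 7, of which 3 were tested, overlapped between genotypes, at 1.42 to 6.53 CPM in control and 2.55 to 10.6 CPM in RoraEKO. T cell markers, of a lineage in which *Gata3* is also expressed, summed to between 20.2 and 49.7 CPM in control and between 18.1 and 71.4 CPM in RoraEKO. Neutrophil markers, of a lineage that also uses *Cebpa* and *Cebpb*, summed to between 4.69 and 20.2 CPM in control and between 16.4 and 71.2 CPM in RoraEKO. Nearly all of this was *S100a8* and *S100a9*, the 2 tested, with *S100a9* at 60.9 CPM in RoraEKO B4, and the other 6 summed to 2.99 CPM or less in every library, with *Elane* at 0. Erythroid markers, 6 genes all with a log2 fold change above 0 (median 1.86), held 4 of the 7 genes higher at an unadjusted p under 0.05 and summed to between 47.9 and 335 CPM in control and between 125 and 1045 CPM in RoraEKO. Melanocyte markers, 7 genes with a median of -0.84, held all 4 of the lower ones, *Dct*, *Pmel*, *Sox10* and *Tyr*, and summed to between 51.1 and 143 CPM in control and between 56.1 and 104 CPM in RoraEKO. Sebocyte markers summed to between 104 and 404 CPM in control and between 77.4 and 195 CPM in RoraEKO. Their part in the levels of the 10 factors was not tested.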

How the data were processed

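RNA-seq of epidermis from mice at postnatal day 4 gave 8 libraries, 4 per genotype, grouped by the genotype in their labels. The authors trimmed read pairs with Skewer, aligned them to GRCm39 with STAR 2.5.3a and estimated expected counts per gene with RSEM. These expected counts were deposited without scaling for depth or length, and 0 further columns of sample values were left out. The annotation release and strand setting of the counting are not given in the sources used here, and the study gives 4 mice per genotype, so each library was taken as 1 mouse.

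The counts were rounded (2.99% were not whole), filtered with filterByExpr, normalised by TMM and compared in edgeR 4.0.16 (R 4.3.3) by its quasi-likelihood test in the legacy form, with Benjamini-Hochberg adjustment over 13147 genes. Cutoffs were those of the study, an adjusted p below 0.05 with a fold change above 1.5. CPM used the TMM factors, and standard errors are those of the difference in mean log2 CPM (prior count 2). A floor of 3 counts equals 0.113 to 0.196 CPM and covers counting error only. The script was tested on simulated data with known changes. DESeq2 1.42.0, other scalings, filters and tests, covariates and left-out libraries were the alternatives.

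Symbols, coordinates and canonical lengths came from GENCODE release M39, which held 54749 of the 55416 identifiers, and promoter sequences from RefSeq on GRCm38.p6. The 10 factors and all gene lists were chosen with earlier results of these data known. Genes named were the 10 factors, *Rora*, *Xist*, and of each list the genes past the cutoffs or, with none, the most abundant in control, and not all of the latter are printed. Every other gene named was singled out after its values were seen. Protein sequences were not used here. Plots were drawn with matplotlib 3.10.9.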

Additional observations from a re-analysis of the deposited data

Results flagged for a closer look

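The levels of the 10 factors and the 2 ratios were checked in both genotypes for a library far from the other 3, which made 24 groups of 4 libraries. In 3 of them the gap of the highest or lowest library to its neighbour, divided by the range of the group, exceeded the critical value of Dixon's test, which chance exceeds in about 1 of 20 groups. *Klf4* was at 1003 CPM in RoraEKO B4 (gap over range 0.884). *Ovol1* was at 269.9 CPM in the same library (0.926). *Cebpb* was at 19.6 CPM in RoraEKO A3 (0.944).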

How the results depend on the processing

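Over 19 alternatives 0 factors were higher past the cutoffs. *Gata3*, the 1 lower factor, stayed lower in all 19, but the count of lower factors was 0 with RLE size factors, with no filter on low counts, with at least 10 counts in every library and with the libraries without *Xist* alone, and it ran from 0 to 1 when single libraries were left out. Of all tested genes 302 were higher in the fit reported. This count was 478 with DESeq2, 182 with *Xist* as a covariate, 486 with the inner root sheath markers as a covariate (added after seeing the data), 147 in the libraries without *Xist*, and from 174 to 383 without single libraries. The lower genes numbered 423 in the fit reported, 553 with DESeq2, 290 with *Xist* as a covariate and 588 with the inner root sheath markers as a covariate. They numbered 167 in the libraries without *Xist*, and from 283 to 513 without single libraries. For the factors not past the cutoffs some directions turned. With *Xist* as a covariate the log2 fold change was -0.029 for *Ovol1* and -0.15 for *Prdm1*. *Prdm1* was also at -0.0060 with the inner root sheath covariate and at -0.087 in the libraries without *Xist*. Without single libraries *Trp63* ran from -0.10 to 0.22, *Grhl3* from -0.18 to 0.45, *Prdm1* from -0.048 to 0.19, *Klf4* from 0.13 to 0.38, *Ovol1* from 0.02 to 0.38 and *Cebpb* from 0.02 to 0.30. In the same fits *Grhl1* ran from -0.26 to -0.12 and *Zfp750* from 0.15 to 0.35. Likewise the difference in log2 ratio ran from 0.24 to 0.49 for *Cebpa* to *Cebpb* and from -0.59 to -0.05 for *Grhl1* to *Grhl3*, the last being -0.69 in the libraries without *Xist*. *Grhl3* was at 0.53 with *Xist* as a covariate and 0.58 without the libraries that held it. The causes were not tested. The labels of the 2 genotypes share letters but no replicate number, and what a letter marks is not given. With the letter as a block 1 factor was lower and 0 higher, and 420 of all genes were higher and 579 lower. With 4 libraries a genotype, a difference that missed the cutoffs is not shown to be absent.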
